A study of Mus musculus with 6 samples.

Results

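The genes described here encode the respiratory chain and ATP synthase of mitochondria, and they were taken from an RNA sequencing experiment on the soft palate of mouse embryos at embryonic day E14.0. Members were chosen by symbol alone: Nduf, Uqcr, Sdh followed by 1 letter, Cox4 to Cox8 and Atp5 for genes of the nucleus, and mt-Nd, mt-Co, mt-Cytb and mt-Atp for genes of the mitochondrial chromosome, with pseudogene symbols (those holding -ps, 11 in all) left out. This gave 107 of the 21938 genes of the table. Of these, 94 are nuclear and 13 mitochondrially encoded. The nuclear set holds 86 subunits or their paralogues and 8 assembly factors of complex I (Ndufaf genes). Cox7a1, Cox8c and Ndufb1 were not analysed here. Every one of the 107 members was listed above 0 and all entered the test, which used no filter on low values.

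The respiratory chain sits in the inner mitochondrial membrane. Complex I (NADH dehydrogenase) and complex II (succinate dehydrogenase) pass electrons to ubiquinone, complex III to cytochrome c and complex IV (cytochrome c oxidase) to oxygen, and complex V (ATP synthase) uses the proton gradient built by complexes I, III and IV to make ATP. Complexes I, III, IV and V are built from products of both genomes, and complex II from nuclear products alone. The mitochondrial genes are transcribed from both strands as long precursors that are cut into rRNAs, tRNAs and mRNAs, while the nuclear genes are transcribed one by one, many of them through binding sites for NRF1, ETS family factors or YY1.

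The controls carried floxed alleles of beta-catenin with no Cre named (b-catenin fl/fl, labelled wild type), and the mutants carried the same floxed alleles with Osr2-Cre (Osr2-Cre;b-catenin fl/fl). Beta-catenin (Ctnnb1) links cadherins to the cytoskeleton and carries the canonical Wnt signal, and Osr2-Cre acts where Osr2 is expressed, in palatal mesenchyme among other places, so tissue outside its domain keeps the intact gene. Each group had 3 libraries, numbered 1, 2 and 3 for control and 5, 6 and 7 for mutant. The labels do not say whether a library came from 1 embryo or a pool, and p-values then reflect only the variation among these 6 libraries, which may be technical in part.

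All values are CPM, the reads counted on a gene scaled to a common library total, and a change is the difference of means of log2(CPM + 1), mutant minus control, with its standard error. Estimated counted reads ran from 10016075 to 15083835 per library, at which 3 reads correspond to 0.199 to 0.300 CPM. Ctnnb1 measured 699, 785 and 671 CPM in control and 585, 633 and 582 CPM in mutant, lower without overlap but not past the threshold (change -0.26 ± 0.10, limma adjusted p = 0.183). The table gives 1 value for the whole gene, and which exons are floxed is not stated in the sources used here. Over all genes the median change was 0.04, and 105 genes (0.479%) passed an adjusted p of 0.05, 43 of them higher (0.196%) and 62 lower (0.283%). Without control 2 the number was 452, and without any one of the other libraries it was between 0 and 2. Markers of the tissue were present in every library: 6 palatal mesenchyme genes summed to 793 to 1003 CPM in control and 666 to 801 CPM in mutant, and 7 epithelial genes to 897 to 1736 CPM over both groups. All 6 mesenchyme genes were lower in mean log2 level in mutant (median change -0.61), but only 1 of them, Osr2, passed the threshold or was lower without overlap. Osr2 is also the gene after which the Cre of the mutants is named. The others overlapped, with changes from -0.13 (Prrx1) to -1.04 (Tbx22). Markers of 3 other cell types differed between the groups without overlap. The 16 skeletal muscle genes summed to 15619, 7424 and 11325 CPM in control and 4944, 6122 and 5050 CPM in mutant, and all 16 were lower, 7 past the threshold. The 8 erythroid genes summed to 1615, 2815 and 4776 CPM in control and 782, 1375 and 1322 CPM in mutant. The 7 motile cilia genes summed to 60.0 to 167 CPM in control and 186 to 244 CPM in mutant. None of these markers was listed at 0 in all libraries, and the sums of 4 endothelial and of 5 macrophage genes overlapped between the groups, though all 5 macrophage genes were lower in mean log2 level (median change -0.36).

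Nuclear respiratory chain mRNAs were lower in mutant as a set of small differences, and none passed the threshold. The 94 nuclear genes summed to 4604, 4624 and 5080 CPM in control and 4061, 4483 and 4309 CPM in mutant. The groups did not overlap, and the mean was 10.2% lower in mutant (4769 ± 269 against 4284 ± 212 CPM, SD, n = 3 each). The median change over the 94 was -0.17, against 0.04 over all genes, and 74 of the 94 (78.7%) had a lower mean log2 level in mutant, against 43.9% of all genes. Most members are short, and lower values were commoner among short genes. Of all genes at 10 CPM or more in the shortest of 5 length classes (57 to 2690 bases), 68.3% were lower. The mitochondrially encoded mRNAs did not share this direction. Their 13 genes summed to 7436, 8440 and 5272 CPM in control and 8677, 7666 and 7173 CPM in mutant, so the groups overlapped. The mean was 11.2% higher in mutant, and 12 of the 13 genes had a higher mean log2 level there, as did 12311 of all 21938 genes. Control 3 held the lowest mitochondrial sum of all 6 libraries and the highest nuclear sum.

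**Figure D1:**
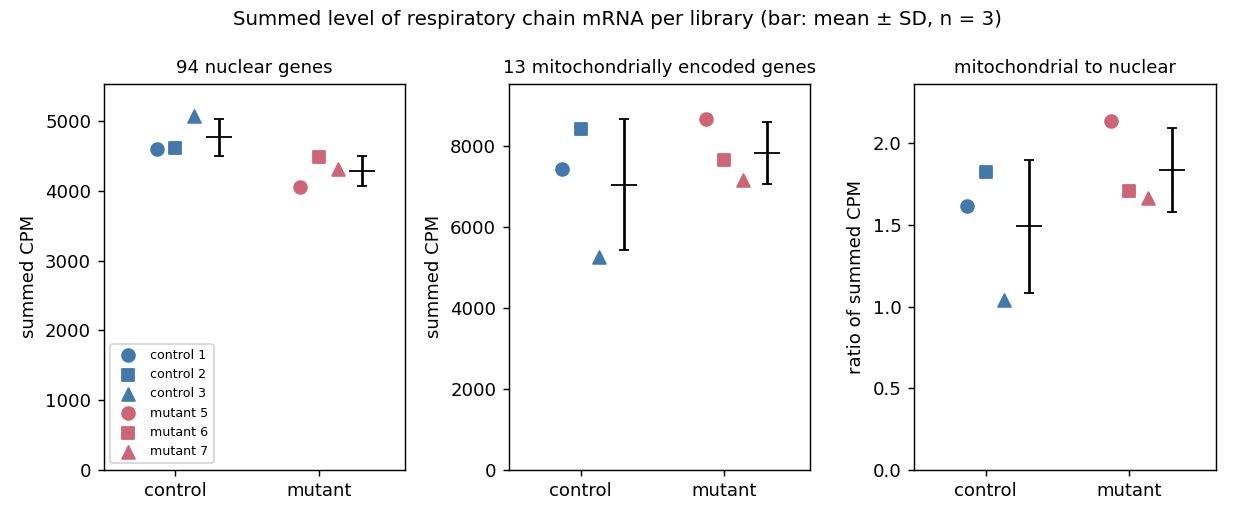
Summed level of the 94 nuclear genes (left) and the 13 mitochondrially encoded genes (middle), both in CPM, and the ratio of the second sum to the first (right), for each library, with mean ± SD (n = 3) beside each group. The nuclear sums of the 3 mutant libraries (4061 to 4483 CPM) lie below the 3 control libraries (4604 to 5080 CPM), while the mitochondrial sums and the ratios overlap.

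The ratio of mitochondrially encoded to nuclear mRNA was 1.62, 1.83 and 1.04 in control and 2.14, 1.71 and 1.66 in mutant. The groups overlapped, and control 3 alone stood near 1. Without control 3 the mitochondrial sum was 1.25% lower in mutant instead of higher, only 4 of the 13 mitochondrial genes were higher, and their median change was -0.04 instead of 0.16. The nuclear difference was smaller but had the same direction: without control 3 the sum was 7.14% lower in mutant and 70 of the 94 genes were lower. Leaving out any one library gave a nuclear sum between 12.2% and 7.14% lower in mutant.

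No member passed an adjusted p of 0.05, and the smallest among the 107 was 0.0621 (Atp5g3). At an unadjusted p of 0.05 the test counted 16 nuclear genes lower (17%) and 1 higher (1.06%), against 8.07% lower and 13.4% higher among all genes. Of the nuclear genes, 30 (31.9%) were lower in all 3 mutants than in all 3 controls, against 10.8% of all genes, and 2 (2.13%) were higher in this sense, against 17.1% of all genes. Among all genes of the shortest length class, 23.9% were lower without overlap. Among the 13 mitochondrial genes, 2 (15.4%) were higher at an unadjusted p of 0.05, near the 13.4% of all genes. One of the 13 (7.69%), mt-Nd6, was higher without overlap, against 17.1% of all genes. In bulk tissue fewer cells rich in these mRNAs and less mRNA per cell cannot be told apart. The muscle and erythroid marker sums were lower in mutant along with the nuclear members, by 53.1% and 62.2%. The palatal mesenchyme and macrophage sums were lower by 17.3% and 24.2%, with overlap. Other marker sums went the other way: motile cilia was 79.6% higher without overlap, and epithelium 16.4% higher with overlap. The endothelial sum hardly differed (0.102% higher, with overlap). The part of these markers' cells in the nuclear difference was not tested.

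**Figure D2:**
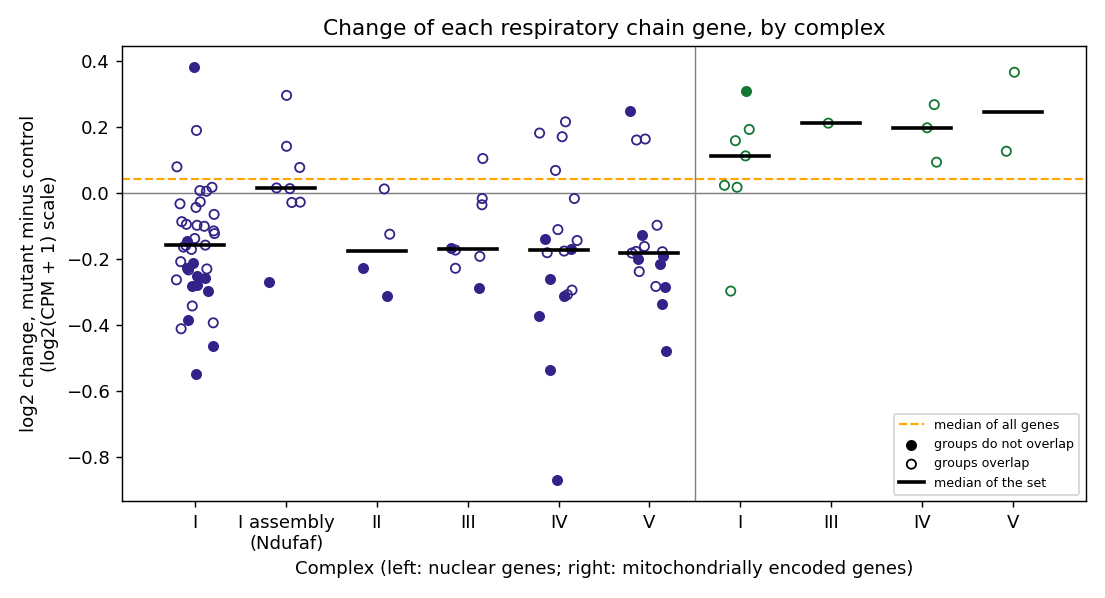
Change of each of the 107 genes (vertical axis, mutant minus control on the log2(CPM + 1) scale) by complex, nuclear genes on the left and mitochondrially encoded genes on the right. Filled points are genes whose 3 control and 3 mutant values do not overlap, black bars are set medians (-0.16 to -0.18 for the nuclear subunits of complexes I to V) and the dashed line is the median of all genes, 0.04.

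Promoters of the nuclear members were searched for 4 motifs, since these genes had lower values together. The window was 250 bases before to 50 bases after each RefSeq start, on both strands, and 74 of the 94 nuclear members matched 79 promoters. GCGCANGCG, a core of the NRF1 site, was in 29.1% of the member promoters, against 6.25% of all 32851 promoters and 13.8% of promoters of genes at 10 CPM or more. AAGATGGC (YY1) was in 13.9%, against 2.75% and 4.57%, and CCGGAAGT (ETS factors such as GABPA) in 6.33%, against 3.89% and 8.3%. ATCAAAG (TCF/LEF, the factors that beta-catenin binds) was in 1.27%, that is 1 promoter, against 3.73% and 2.45%. Matches of GCGCANGCG may overlap each other. The 22 members with an NRF1 match had a median change of -0.18 and the other members with a promoter a median of -0.16. A match is a run of letters and says nothing of binding in these cells.

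The 200 bases before the start of 5 members are shown to set 3 genes with lower values and an NRF1 match beside the gene with the smallest p and the gene with the highest change. They are RefSeq sequences on GRCm38.p6, 5′ to 3′ along the gene, all from the minus strand, and capitals mark each GCGCANGCG match on either strand. The stretches are chr5:115348959-115349158 for Cox6a1, chr2:36049339-36049538 for Ndufa8, chr9:50603850-50604049 for Sdhd, chr2:73911327-73911526 for Atp5g3 and chr7:122101849-122102048 for Ndufab1. The window and the genes shown were chosen after the matches were seen.
Cox6a1: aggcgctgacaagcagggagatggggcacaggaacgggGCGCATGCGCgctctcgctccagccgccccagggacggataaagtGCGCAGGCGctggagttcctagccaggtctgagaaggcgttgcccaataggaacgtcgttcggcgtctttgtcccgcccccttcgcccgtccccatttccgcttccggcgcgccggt
Ndufa8: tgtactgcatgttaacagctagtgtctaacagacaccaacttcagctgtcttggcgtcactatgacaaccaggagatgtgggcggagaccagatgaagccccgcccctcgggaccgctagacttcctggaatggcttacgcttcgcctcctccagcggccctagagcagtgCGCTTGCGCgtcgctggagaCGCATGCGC
Sdhd: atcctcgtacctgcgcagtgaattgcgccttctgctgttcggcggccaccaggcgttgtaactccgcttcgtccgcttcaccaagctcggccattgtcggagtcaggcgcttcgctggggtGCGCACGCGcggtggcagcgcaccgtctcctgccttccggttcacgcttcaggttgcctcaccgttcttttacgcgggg
Atp5g3: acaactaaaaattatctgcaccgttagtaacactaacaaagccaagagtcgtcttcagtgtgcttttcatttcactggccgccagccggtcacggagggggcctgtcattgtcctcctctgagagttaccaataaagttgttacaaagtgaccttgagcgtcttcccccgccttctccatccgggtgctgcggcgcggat
Ndufab1: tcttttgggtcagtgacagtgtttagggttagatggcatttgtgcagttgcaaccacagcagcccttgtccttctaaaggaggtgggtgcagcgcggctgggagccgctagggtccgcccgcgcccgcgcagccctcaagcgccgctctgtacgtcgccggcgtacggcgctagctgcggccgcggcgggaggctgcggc
Cox6a1, a subunit of complex IV, holds 3 matches, which begin 162, 161 and 117 bases before the start, the first 2 on one overlapping run. Ndufa8, of complex I, holds 2 that begin 29 and 9 bases before it, and Sdhd, of complex II, holds 1 that begins 79 bases before it. The stretch of Atp5g3, of complex V, holds none, and its match begins 14 bases after the start, outside the bases shown. The stretch of Ndufab1, whose values were higher in mutant, holds none of the 4 motifs. Other members with higher values do have an NRF1 match in the searched window, such as Atp5g2 (change 0.25 ± 0.18) and Atp5l (0.16 ± 0.14).

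By median change, the nuclear subunits of all 5 complexes were lower to a similar extent. Their summed levels differed more, from 6.85% lower in complex II to 13.1% lower in complex V, and those of complex III overlapped between the groups. The median change was -0.16 over the 39 nuclear subunits of complex I, -0.18 over the 4 of complex II, -0.17 over the 8 of complex III, -0.17 over the 18 of complex IV and -0.18 over the 17 of complex V. Differences between complexes were not tested. The 8 complex I assembly factors stood apart in value, with a median of 0.01 and sums of 91.1 to 110 CPM in control and 98.2 to 104 CPM in mutant. Ndufaf7, a methyltransferase of the mitochondrial matrix, was among the 6 largest rises of nuclear members at or above the median level of all genes (10.19 CPM), at 17.2, 20.4 and 16.8 CPM in control and 20.3, 19.8 and 20.0 CPM in mutant. Its groups overlapped. Ndufaf3, below that level, had a larger change (0.295 ± 0.189), also with overlap. Ndufaf8, also below it, was the only assembly factor of the 8 whose groups did not overlap (12.5%, against 10.8% of all genes lower in this sense). It was lower, at 9.28 to 11.6 CPM in control and 7.36 to 8.96 CPM in mutant (change -0.27 ± 0.16, limma adjusted p = 0.355). Ndufaf3 and Ndufaf8 were named after their values were seen.

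Complex I takes electrons from NADH through the flavin of Ndufv1 and the iron-sulphur clusters of subunits such as Ndufs1. Its nuclear subunits summed to 1378, 1346 and 1517 CPM in control and 1223, 1338 and 1292 CPM in mutant, 9.16% lower in mutant without overlap. Of the 39 genes, 33 (84.6%) were lower in mean log2 level, against 43.9% of all genes. Of these, 11 (28.2%) were lower without overlap, against 10.8% of all genes, and 7 (17.9%) had an unadjusted p below 0.05 in that direction, against 8.07%. Ndufv1 (change -0.10 ± 0.10) and Ndufs1 (change 0.08 ± 0.08) overlapped between the groups.

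The largest differences within complex I were in some of its accessory subunits, which are named here for the size of their changes. Other accessory subunits hardly differed, such as Ndufa5 (change 0.007) and Ndufb5 (0.005). Ndufb6 measured 17.8, 18.8 and 21.9 CPM in control and 11.6, 13.4 and 13.99 CPM in mutant, a change of -0.55 ± 0.14 (limma adjusted p = 0.0877). Ndufb3 measured 13.4, 15.4 and 11.7 CPM in control and 9.90, 10.1 and 8.42 CPM in mutant, a change of -0.46 ± 0.15 (limma adjusted p = 0.143). Both are subunits of the membrane arm, and in both every mutant was below every control. Ndufa8, a subunit with twin cysteine motifs that is imported into the intermembrane space, measured 26.4, 29.9 and 29.0 CPM in control and 22.3, 21.9 and 20.4 CPM in mutant. Its change was -0.38 ± 0.11 (limma adjusted p = 0.106), again without overlap. Ndufa7 had a change of -0.41 ± 0.15, but its highest mutant (17.9 CPM) exceeded its lowest control (17.7 CPM).

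Ndufab1 had the highest change of the 39 nuclear subunits of complex I, 6 of which were higher in mean log2 level. It encodes the mitochondrial acyl carrier protein, which is a complex I subunit and also serves mitochondrial fatty acid synthesis and iron-sulphur cluster assembly. It measured 16.7, 18.6 and 18.5 CPM in control and 24.0, 22.4 and 24.5 CPM in mutant. Every mutant was above every control, and the mean was 31.9% higher (change 0.38 ± 0.11, limma adjusted p = 0.115). Its exons as annotated cover 6883 bases, against a median of 1587 bases over the nuclear members at 10 CPM or more. Those of Ndufb6, Ndufb3, Ndufa8 and Ndufa7, all lower in mutant, cover 659, 763, 861 and 1828 bases.

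**Figure D3:**
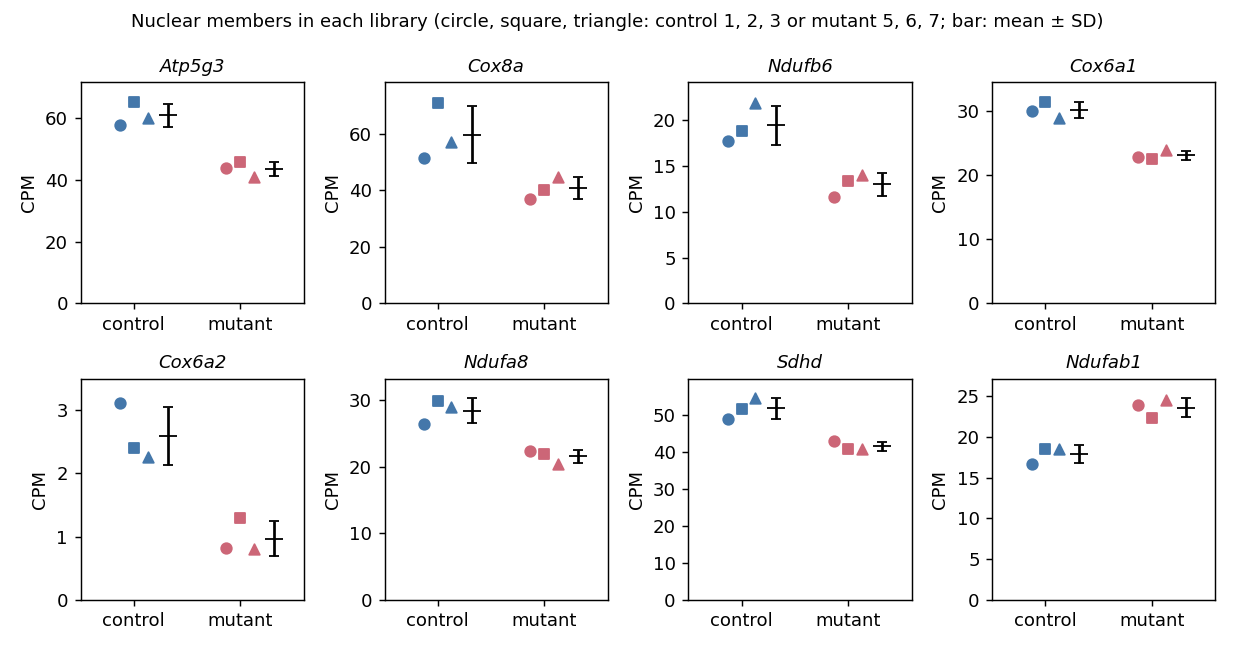
CPM in each of the 6 libraries for 8 nuclear genes, with mean ± SD (n = 3) beside each group and vertical axes that start at 0. They are the 8 nuclear genes with the smallest p by limma, so separated groups go with the choice. In 7 of the genes all 3 mutant libraries lie below all 3 control libraries, as in 30 (31.9%) of all 94 nuclear genes. Ndufab1 shows the opposite order, with mutants at 22.4 to 24.5 CPM and controls at 16.7 to 18.6 CPM.

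Complex II couples the tricarboxylic acid cycle to the chain. Sdha, its flavoprotein, hardly differed, with 163, 161 and 143 CPM in control and 151, 155 and 164.5 CPM in mutant (change 0.01 ± 0.09, 95% interval -0.19 to 0.21). Sdhd, one of the membrane anchors that bind ubiquinone, measured 49.03, 51.7 and 54.7 CPM in control and 42.9, 40.8 and 40.9 CPM in mutant. That is 19.9% lower without overlap (change -0.31 ± 0.09, limma adjusted p = 0.113). Sdhb, the iron-sulphur subunit, was also lower without overlap, at 46.2 to 58.5 CPM in control and 41.9 to 44.9 CPM in mutant. Sdhc, the other anchor, overlapped, with a change of -0.12 ± 0.10. The 4 genes together summed to 313 to 317 CPM in control and 286 to 299 CPM in mutant, 6.85% lower.

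The 8 nuclear genes of complex III summed to 393, 405 and 465 CPM in control and 366, 418 and 379 CPM in mutant, and the groups overlapped. Uqcrc1, a core protein, measured 92.0, 109 and 117 CPM in control and 95.6, 110 and 104 CPM in mutant, with no separation (change -0.04 ± 0.11). Uqcrfs1, the Rieske iron-sulphur protein, measured 57.8, 53.8 and 60.1 CPM in control and 50.1, 52.7 and 49.8 CPM in mutant. Its groups did not overlap, and its change was -0.17 ± 0.09 (limma adjusted p = 0.316). Cyc1, the cytochrome c1 of the same complex, lies outside the symbol rule, and with Cycs, cytochrome c itself, it was listed among the related genes. Cyc1 measured 36.2, 45.2 and 39.2 CPM in control and 30.2, 27.3 and 31.0 CPM in mutant (change -0.43 ± 0.12, limma adjusted p = 0.102).

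Complex IV has subunits with alternative isoforms, some of them known for striated muscle. The 18 nuclear genes summed to 778 to 883 CPM in control and 699 to 773 CPM in mutant, 9.67% lower. Ndufa4 is counted here because its product is known as a subunit of complex IV, and its paralogue Ndufa4l2 was placed with it. Cox8a, the ubiquitous form of subunit 8, measured 51.3, 70.7 and 57.1 CPM in control and 37.0, 40.1 and 44.7 CPM in mutant. Its mean was 31.9% lower without overlap (change -0.54 ± 0.13, limma adjusted p = 0.0882). Cox8b, the form of heart and skeletal muscle, was near the limit of detection: 1.28, 0.299 and 0.623 CPM in control and 0.326, 0.304 and 0.464 CPM in mutant.

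Subunit 6a showed a difference in both of its forms. Cox6a1, the ubiquitous form, measured 30.0, 31.4 and 28.8 CPM in control and 22.9, 22.4 and 23.9 CPM in mutant (change -0.37 ± 0.10, limma adjusted p = 0.103). Cox6a2, the form of heart and skeletal muscle, measured 3.12, 2.40 and 2.26 CPM in control and 0.815, 1.29 and 0.795 CPM in mutant. Every mutant was below every control in both genes, and the mean of Cox6a2 was 62.7% lower (change -0.87 ± 0.20, limma adjusted p = 0.0777), the largest change of the 107 members on this scale. The 16 skeletal muscle markers, whose sum was 53.1% lower, moved with it, and their part in the Cox6a2 difference was not tested. Without the muscle isoforms Cox6a2 and Cox8b the median change of the nuclear members was -0.16, against -0.17 with them. Leaving out so few genes can hardly move a median, so this value does not bear on the part of muscle cells.

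The other isoform sets of complex IV gave smaller differences or none. Cox4i1, the ubiquitous form of subunit 4, measured 152, 138 and 164 CPM in control and 128, 150 and 143 CPM in mutant, and its paralogue Cox4i2, known for lung and for low oxygen, 1.64 to 2.70 and 1.63 to 2.43 CPM. Neither separated the groups. Cox6b1 had a change of -0.29 ± 0.13 and its testis form Cox6b2 a change of 0.21 ± 0.23, both with overlap. Cox7a2 was lower without overlap, at 24.5 to 26.8 CPM in control and 19.0 to 23.3 CPM in mutant. Cox7a2l, which takes part in joining complexes III and IV, overlapped, with a change of -0.18 ± 0.11. Ndufa4 was lower without overlap (25.9 to 27.8 against 22.7 to 25.0 CPM, change -0.17 ± 0.10), and Ndufa4l2, known as a gene induced by low oxygen, overlapped (change 0.18 ± 0.23). Cox6c2, at 111, 85.9 and 141 CPM in control and 115, 128 and 129 CPM in mutant, overlapped too. It is a near copy of Cox6c, and reads could be split between such copies in a way the sources used here do not describe, as for Ndufb4 and Ndufb4c, Ndufs6 and Ndufs6b, and Ndufa11 and Ndufa11b.

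Complex V had the largest difference in summed level among the nuclear sets. Its 17 genes summed to 1630.2, 1688 and 1789.5 CPM in control and 1384, 1550 and 1503 CPM in mutant, 13.1% lower without overlap. Most of these reads fell on the alpha and beta subunits of the catalytic head. Atp5b, the beta subunit that holds the catalytic sites, measured 443, 464 and 481 CPM in control and 350, 396 and 393 CPM in mutant (change -0.29 ± 0.09, limma adjusted p = 0.129). Atp5a1, the alpha subunit, measured 488, 501 and 519 CPM in control and 414, 451 and 457 CPM in mutant (change -0.19 ± 0.09, limma adjusted p = 0.242). Atp5c1, the gamma subunit of the rotating stalk, had a change of -0.21 ± 0.10. In each of these 3 genes every mutant was below every control.

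The proton-carrying ring of the ATP synthase is built from subunit c, which 3 nuclear genes encode with the same mature protein. Atp5g3 measured 57.8, 65.1 and 60.0 CPM in control and 43.8, 45.7 and 41.0 CPM in mutant. The groups lay well apart, the mean was 28.6% lower, and the change of -0.48 ± 0.09 had the smallest adjusted p of the members (0.0621 by limma). Atp5g1 measured 16.5, 14.8 and 17.6 CPM in control and 14.4, 14.7 and 13.04 CPM in mutant, lower by a small margin. Atp5g2, with the fewest reads of the 3, had the opposite order, with 1.66, 1.77 and 2.00 CPM in control and 2.48, 2.17 and 2.35 CPM in mutant (change 0.25 ± 0.18, limma adjusted p = 0.455). Atp5j (change 0.16 ± 0.11) and Atp5l (change 0.16 ± 0.14), a stalk and a membrane subunit, were higher in value with overlap.

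The mitochondrial chromosome encodes 7 subunits of complex I, 1 of complex III, 3 of complex IV and 2 of complex V. Per kilobase of exon in control, mt-Atp8 (1087 CPM per kilobase), mt-Co1 (954) and mt-Cytb (939) had the highest levels and mt-Nd4l (186) and mt-Nd3 (164) the lowest. mt-Atp8 overlaps mt-Atp6, mt-Nd4l overlaps mt-Nd4, and mt-Nd5 overlaps mt-Nd6 on the opposite strand. Whether reads were counted by strand is not stated in the sources used here, so levels of overlapping genes are uncertain. The median change was 0.11 over the 7 complex I genes and 0.20 over the 3 complex IV genes, and none of the 13 passed the threshold.

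**Figure D4:**
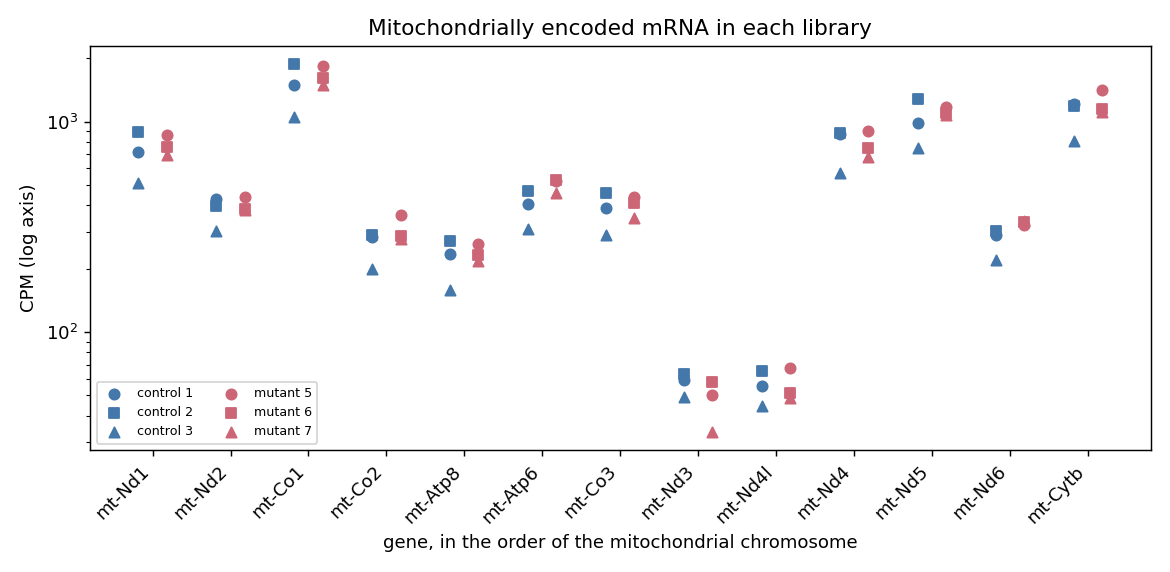
CPM of each of the 13 mitochondrially encoded mRNAs (log axis) in the 3 control and 3 mutant libraries, in the order of the mitochondrial chromosome. Control 3 is the lowest control for every gene, and mt-Nd3 is the gene with a lower mean in mutant (47.2 against 57.1 CPM).

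Control 3 was the lowest of the 3 control libraries for all 13 genes. mt-Co1, the catalytic subunit of complex IV, measured 1488, 1877 and 1056 CPM in control and 1849, 1608 and 1495 CPM in mutant (change 0.20 ± 0.20). mt-Cytb, the cytochrome b of complex III, measured 1221, 1189 and 812 CPM in control and 1419, 1156 and 1114 CPM in mutant (change 0.21 ± 0.17). In both genes the spread of the controls covers most mutant values. mt-Nd1, mt-Nd2, mt-Nd4, mt-Nd4l and mt-Nd5, proton-pumping or ubiquinone-site subunits of complex I, had changes from 0.02 to 0.19, all with overlap. The same held for mt-Co2 (0.27 ± 0.16) and mt-Co3 (0.09 ± 0.17). Without control 3 the sign turned for 8 of the 13 genes.

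The largest changes among the mitochondrial genes were those of mt-Nd6, mt-Atp6 and mt-Nd3. mt-Nd6, the only mRNA copied from the other strand of the chromosome, measured 289, 301 and 221 CPM in control and 324, 334 and 338 CPM in mutant. Every mutant was above every control (change 0.31 ± 0.12, limma adjusted p = 0.192). mt-Atp6, the subunit that forms the proton channel with the c ring, measured 409, 469 and 309 CPM in control and 521, 527 and 461 CPM in mutant (change 0.37 ± 0.15, limma adjusted p = 0.204), with 1 mutant below the highest control. mt-Nd3 went the other way, with 58.95, 63.1 and 49.3 CPM in control and 50.1, 57.9 and 33.6 CPM in mutant (change -0.30 ± 0.19, limma adjusted p = 0.398). Its neighbour on the chromosome, the glycine tRNA mt-Tg, which ends where mt-Nd3 begins, measured 3.36, 4.19 and 2.88 CPM in control and 2.28, 1.37 and 1.59 CPM in mutant (change -0.71 ± 0.21, limma adjusted p = 0.120). It was chosen after its values were seen.

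Dividing by the summed mitochondrial mRNA of the same library removes differences shared by the 13 genes, such as that of control 3. As a share of this sum, mt-Atp6 was higher without overlap, at 5.49%, 5.55% and 5.86% in control and 6.01%, 6.88% and 6.42% in mutant. mt-Nd4 was lower without overlap, at 11.8%, 10.5% and 10.9% in control and 10.5%, 9.82% and 9.51% in mutant, where the closest pair is 10.494% in control 2 and 10.461% in mutant 5. The shares of the other 11 genes overlapped. For comparison, in CPM 17.1% of all genes were higher and 10.8% lower without overlap. Shares of the same sum also depend on each other, so the separations of mt-Atp6 and mt-Nd4 are descriptions without a test. The 2 mitochondrial rRNAs, mt-Rnr1 and mt-Rnr2, summed to 49953, 58471 and 38838 CPM in control and 66669, 64344 and 59551 CPM in mutant, 29.4% higher without overlap. Taken alone, mt-Rnr1 was also higher without overlap, but mt-Rnr2 overlapped (40875 CPM in control 2 and 40003 CPM in mutant 7). Neither rRNA passed the threshold (limma adjusted p = 0.340 for mt-Rnr1 and 0.518 for mt-Rnr2). How far rRNA was removed during library preparation is not stated in the sources used here.

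Genes that build or express the respiratory chain were taken from lists of other pathway genes, and none of them passed the threshold. Of 78 mitochondrial ribosomal protein genes, whose products translate the mitochondrial mRNAs, 59 (75.6%) were lower in mean log2 level, against 43.9% of all genes, and 16 (20.5%) were lower without overlap, against 10.8%. Their median change was -0.11, and their summed levels overlapped, at 1677 to 1818 CPM in control and 1537 to 1742 CPM in mutant. Mrps7, of the small subunit, had 29.0 CPM in control and 22.4 CPM in mutant. Among 14 enzymes of the tricarboxylic acid cycle 12 (85.7%) were lower, with a median of -0.11 and summed levels of 1228 to 1268 CPM in control and 1106 to 1180 CPM in mutant. Citrate synthase (Cs), its entry enzyme, measured 131 and 114 CPM (limma adjusted p = 0.262). The 37 assembly factors outside the symbol rule had a median of -0.08, and their sums overlapped. Coa3, a factor for complex IV assembly, had the smallest p of these, with 18.2 and 13.1 CPM (limma adjusted p = 0.157).

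Genes for mitochondrial DNA maintenance and transcription did not share the lower values. The 17 had a median change of 0.05, close to the 0.04 over all genes, and 7 of them (41.2%) were lower, against 43.9% of all genes. They summed to 297 to 300 CPM in control and 307 to 314 CPM in mutant, higher without overlap by 4.18%. This sum nets genes that moved in both directions, and Mterf4 moved most (mean 18.9 CPM in control, 28.0 CPM in mutant). Of the 17, 4 (23.5%) were higher without overlap, among them Ssbp1 (mean 30.92 CPM in control, 36.35 CPM in mutant). Only 1 (5.88%) was lower in this sense. Among all genes 17.1% were higher and 10.8% lower. Mterf4, which acts in assembly of the mitochondrial ribosome, measured 19.8, 20.3 and 16.6 CPM in control and 28.7, 27.0 and 28.4 CPM in mutant (change 0.55 ± 0.12, limma adjusted p = 0.0697). Polrmt, the mitochondrial RNA polymerase, went the other way, with 27.2 CPM in control and 21.3 CPM in mutant (limma adjusted p = 0.208). The 16 genes of mitochondrial RNA processing and stability had a median of 0.05, and at an unadjusted p of 0.05 2 of them were lower (12.5%) and 1 higher (6.25%), against 8.07% and 13.4% of all genes. The 9 regulators of mitochondrial biogenesis had a median of 0.13. Of these, Ppargc1a, a coactivator of respiratory genes, measured 9.94 and 12.3 CPM and Nrf1, a factor known to act on respiratory genes, 50.1 and 56.4 CPM, with limma adjusted p-values of 0.292 and 0.350.

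The nuclear members are mostly short transcripts, and the change over all genes varied with length. Of the nuclear members at a mean of 10 CPM or more, 79 had an exon length, with a median of 1587 bases, against 4960 bases over the 10829 such genes of the table. When those genes were divided by length into 5 classes of near equal number, in the shortest class (57 to 2690 bases) the median change was -0.12 over all genes and -0.18 over the 57 nuclear members in it, and 23.9% of all genes against 36.8% of the members were lower without overlap. A lower mean log2 level was found for 68.3% of all genes in the shortest class and for 51 of the 57 members. In the longest class the median over all genes was 0.09, and no nuclear member lay there. In the class next to the shortest the median was -0.08 over all genes and -0.04 over 14 members, and the shares lower without overlap had the reverse order, 21.3% of all genes and 14.3% of the members. There 63.9% of all genes and 8 of the 14 members had a lower mean log2 level. The 2 classes after it held 5 members with a median of -0.12 against -0.03 over all genes, and 3 members with a median of 0.16 against 0.02. The split by length was made after the values were seen, and the part of length in the nuclear difference was not tested.

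**Figure D5:**
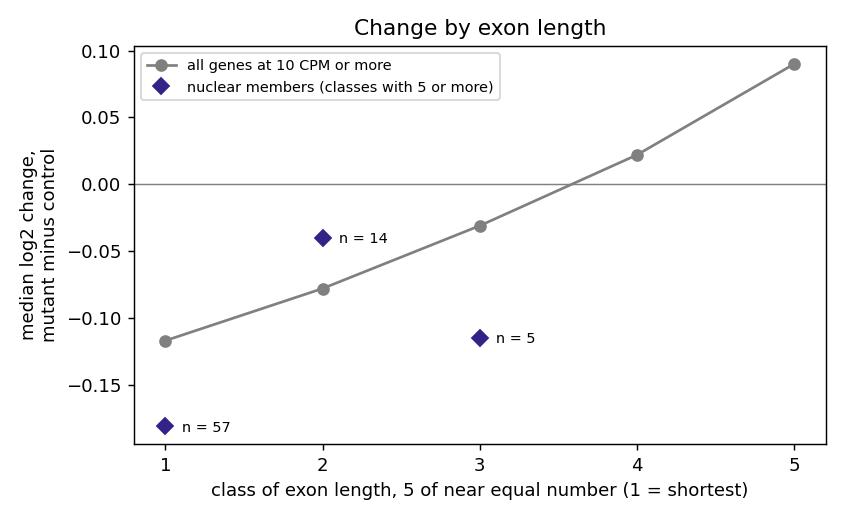
Median change (mutant minus control, log2(CPM + 1) scale) by class of exon length for all genes at 10 CPM or more (grey line) and for the nuclear members in the classes that hold at least 5 of them (diamonds, number beside each). The median of all genes runs from -0.12 in the shortest class to 0.09 in the longest, and 57 of the 79 members lie in the shortest.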

How the data were processed

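RNA of soft palate tissue from 3 control and 3 mutant mouse embryo samples was sequenced, and STAR and the mouse build mm10 are named, without versions, per the submitters' processing notes. How reads were counted, whether by strand and on which annotation is not stated in the sources used here. The authors deposited CPM values per gene, all raised by a constant of 0.0001, which was seen in the values and subtracted. A second deposited table of fewer genes was not used. The number of columns left unused for want of a sample was 0.

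The design allowed for counts, but the files held CPM. Low values were whole multiples of the value of 1 read within 0.02 for 63.8 to 68.1% of genes, so whole reads were not recovered, no count model was run, and depths are estimates. Values were taken as log2(CPM + 1), and all 21938 genes were fitted with limma 3.58.1 (R 4.3.3) using an intensity trend and Benjamini-Hochberg adjustment, two-sided, with a threshold of 0.05 on the adjusted p. This scale understates the change of low genes. The script was tested on simulated data. Intervals have a level of 95%, and limits from reads cover counting error only. No pair of libraries correlated above 0.9878, so no 2 libraries were copies. The labels name no batch, and the groups share no replicate numbers, so the fit had no block.

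The members, the related lists and the cell type markers were chosen with earlier results of these data known, and counts and medians over them are descriptions without a test. Named members are all mitochondrial genes, core subunits, isoform sets, the 6 largest rises and falls at or above the median level of all genes, and, in each complex, the nuclear gene with the highest mean CPM; from each related list up to 3 genes with the smallest p could be named; 1 gene the rule names is not reported here. Cox6a2 and other low genes enter as isoforms. Gene positions and exon lengths came from the GENCODE annotation of GRCm38, the assembly that mm10 names, in which 104 of the 107 members matched 1 gene, and promoter sequences came from RefSeq.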

Additional observations from a re-analysis of the deposited data

How the results depend on the processing

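No member passed an adjusted p of 0.05 by limma under any alternative run (other pseudocounts, a filter at a mean of 1 CPM, scaling without mitochondrial genes or by the median ratio, no intensity trend, robust fitting, a 1.5-fold limit, or leaving out each library). At an adjusted p below 0.1, 4 of the 94 nuclear members passed (Atp5g3, Cox6a2, Ndufb6 and Cox8a). Of all 21938 genes 999 did, a similar share, so this count does not set the members apart. The number of all genes called was 0 without the intensity trend, where 4516 had an unadjusted p below 0.05, and 174 with robust fitting, and it ran from 0 to 452 on leaving out 1 library. The median change of nuclear members stayed negative throughout: -0.145 scaled by the median ratio and -0.142 scaled without mitochondrial genes, where the median of all genes was 0.06, and -0.20 to -0.11 on leaving out 1 library, with 68 to 80 of the 94 genes lower and 31 to 47 lower without overlap, against 13 to 17.1% of all genes; the 47 came without mutant 6. That of mitochondrial members ran from -0.04 (without control 3) to 0.30 (without control 2), and their summed difference from -1.25% to 23.4%. Of 49 named members, 36 kept their sign in every alternative, and 18 of 537 values turned, all on leaving out 1 library. The ranges of the changes that turned were -0.10 to 0.29 for mt-Atp8, -0.024 to 0.39 for mt-Co1, -0.087 to 0.24 for mt-Co3, -0.058 to 0.34 for mt-Nd1, -0.038 to 0.21 for mt-Nd2, -0.19 to 0.13 for mt-Nd4, -0.13 to 0.15 for mt-Nd4l, -0.003 to 0.39 for mt-Nd5, -0.047 to 0.046 for Sdha, -0.13 to 0.040 for Uqcrc1, -0.13 to 0.11 for Cox4i2, -0.036 to 0.44 for Ndufa4l2 and -0.009 to 0.34 for Cox6c2. The cause was not tested. Scaling by TMM factors was planned and not run, since it needs counts. No paired analysis was possible because the groups share no replicate numbers. Genes near 0.3 CPM, such as Cox8b, rest on a few reads.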
